A study of Mus musculus with 5 samples.

Results

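Neutrophils were found in both T cell libraries of DOX-treated 4T1 tumors, although T cells had been enriched before sequencing. A barcode was kept if it held at least 500 genes and at most 10% of its UMIs (unique molecular identifiers, counted RNA molecules) in mitochondrial genes. It was taken as a neutrophil if it held UMIs of at least 3 of the 6 genes Csf3r, Cxcr2, Retnlg, G0s2, Clec4d and Mmp9, at least 10 UMIs of S100a8 and S100a9 together, no UMI of the T cell gene Cd3e or the epithelial gene Epcam, and fewer than 3 UMIs of the macrophage genes C1qa, C1qb and C1qc together. The members were thus chosen by measured UMIs of these genes, whose values are given as a description. The rule found 262 neutrophils among 6810 kept barcodes, 113 of 3560 in the sensitive and 149 of 3250 in the resistant library. The series holds 7830 kept barcodes in 5 libraries.

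4T1 is a mouse line of triple-negative breast cancer, here injected into the mammary fat pad of female BALB/c mice, 12 weeks old by the labels. Both T cell libraries came from mice given doxorubicin (DOX, a DNA-damaging anthracycline) intravenously at 5 mg/kg in 3 treatments 3 days apart. Sensitive tumors were those that DOX held back and resistant tumors those that grew despite it, and each library pooled the T cell preparations of 3 tumors, which cannot be told apart. Other immune cells, among them cells carrying CD11b (a surface integrin of neutrophils), and CD90.1-marked cancer cells were depleted on magnetic columns, so the neutrophils described here are those that passed this depletion. With 1 library per group there is no replicate check, no test between sensitive and resistant was possible, and all intervals are 95% intervals that cover counting error only.

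Neutrophils are short-lived granulocytes that leave the bone marrow with their granule proteins already made. In tissue they respond to CXCR2 ligands and microbial or damage signals, release chemokines and interleukin-1, and can either harm tumor cells or restrain T cells. S100a8 and S100a9 encode the 2 subunits of calprotectin, the most abundant protein of their cytosol, and Csf3r is the receptor for the growth factor G-CSF.

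Neutrophils made up 3.17% (2.62 to 3.80, exact Clopper-Pearson) of kept barcodes in the sensitive and 4.58% (3.89 to 5.36) in the resistant library, a share ratio of 0.692 (0.545 to 0.880). The ratio lay between 0.585 and 0.740 under each other cell filter, gate or denominator run. Over kept barcodes without a Cd3e UMI the shares were 7.40% and 11.9%. The depletion columns can set such shares, and a change in T cells would move them too, so fewer neutrophils in the sensitive tumors and a stronger depletion of that sample cannot be told apart. In the whole-tumor libraries (below) the order was the other way, at 61.0% in the sensitive library and 44.5% in the library titled resistant. This difference was not tested.

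A sensitive neutrophil held a median of 2298 UMIs and 754 genes and a resistant one 2631 UMIs and 840 genes, against medians of 5126 and 6009 UMIs in all other kept barcodes. S100a8 and S100a9 together took a median of 8.68% of the UMIs of a sensitive neutrophil and 7.75% of those of a resistant one. The mitochondrial share differed: its median was 1.23% in sensitive and 5.20% in resistant neutrophils, and 2.41% and 4.92% in the other kept barcodes. Ratios from barcodes with at most 5% mitochondrial UMIs are given below for this reason. The 2 libraries shared 31 barcode sequences, none of which was a neutrophil in both.

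Markers of other cells showed that 7 of the 149 resistant barcodes held a fibroblast profile beside the neutrophil genes. These 7 had 12178 to 23757 UMIs and 184 to 971 UMIs of 8 fibroblast markers, whereas no other neutrophil held over 9 such UMIs. They carried 22.5% of all UMIs of the resistant neutrophils, and in each of them S100a8 and S100a9 numbered at most 272 UMIs. Without them, summed fibroblast-marker UMIs were 52 in sensitive and 30 in resistant neutrophils, T cell-marker UMIs 17 and 23, macrophage-marker UMIs 46 and 75, monocyte-marker UMIs 27 and 48, dendritic cell-marker UMIs 43 and 77 and endothelial-marker UMIs 21 and 3. Markers of B cells had 4 and 0 UMIs, those of epithelial cells 7 and 6 and those of basophils or mast cells 1 in each library. All 6 NK cell and all 7 eosinophil markers were at 0 in the neutrophils of both libraries. Ratios below are therefore mostly given over all 262 barcodes and then, in parentheses, without these 7, a choice made after the data were seen.

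A second set of 3 resistant barcodes held 20, 476 and 889 UMIs of Ngp, the gene of neutrophilic granule protein, which is transcribed in maturing neutrophils of the marrow. They are called Ngp barcodes here. They were deep, with 6980, 10034 and 20547 UMIs, and 1431, 3819 and 7167 of these were S100a8 and S100a9. None had a fibroblast profile. No sensitive barcode held 10 or more Ngp UMIs (0 of 113, upper limit 3.21%), against 3 of 149 resistant ones (2.01%, 0.417 to 5.77), and a difference of this size is within the counting intervals. Where a value is given without both sets, these 3 and the 7 fibroblast-profile barcodes were left out together, so it is to be read against the value without the 7.

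**Figure D1:**
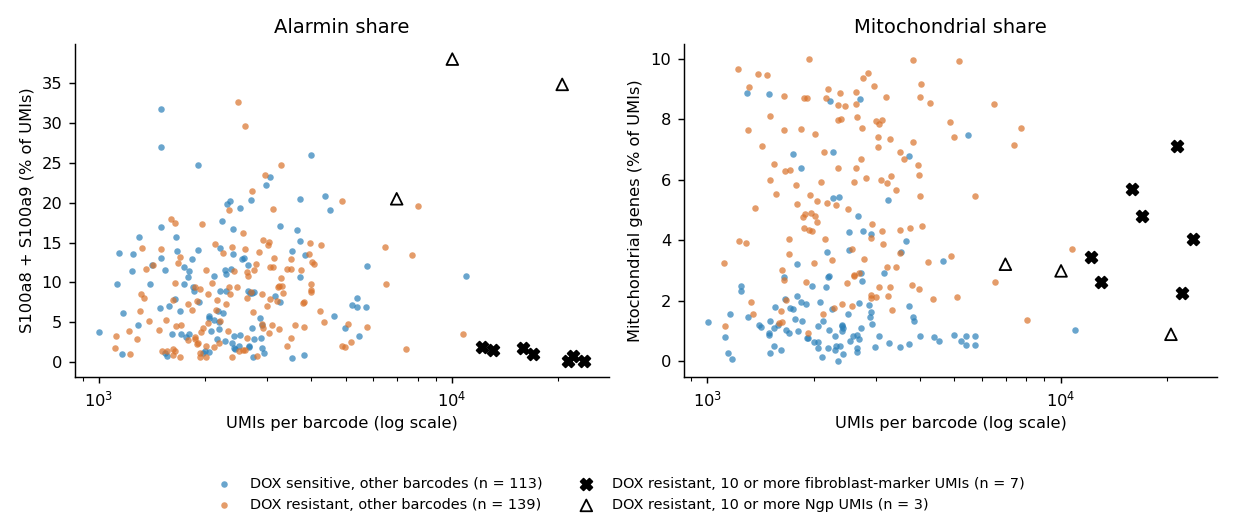
Each point is 1 of the 262 neutrophil barcodes, with its UMIs on a log axis against the percent of UMIs from S100a8 and S100a9 (left) or from mitochondrial genes (right). The 7 crosses are deep and low in the S100 genes, the 3 triangles (Ngp barcodes) hold 20.5% or more of their UMIs in them, and mitochondrial shares are mostly lower in the sensitive library (medians of 1.23% and 5.20%).

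The genes of the rule are described without reading a result from them. S100a8 (chromosome 3, 90668978 to 90670035, GRCm38) stood at 27694 CPM (a gene's UMIs over all UMIs of the neutrophils of its library, scaled to a common total) in sensitive and 32878 CPM in resistant neutrophils, a ratio of 0.842 (0.669 without the 7 barcodes). S100a9 (chromosome 3, 90692632 to 90695721) stood at 67982 and 54485 CPM, a ratio of 1.25 (0.987 without them). The receptor genes Csf3r and Cxcr2 had ratios of 1.29 and 1.87 (1.02 and 1.48). G0s2, an inhibitor of triglyceride breakdown, had 1.61 (1.31), the lectin Clec4d 1.65 (1.31), the gelatinase Mmp9 0.952 (0.788) and the resistin-like Retnlg 0.837 (0.665). Of 5 S100 genes with at least 50 UMIs, S100a10, a partner of annexin A2, was the lowest at 0.0416 from 4 and 183 UMIs, and 0.984 without the 7 barcodes. After each cell was thinned to 1000 UMIs, a depth that every neutrophil reached, 75.2% of sensitive and 63.8% of resistant neutrophils held a Csf3r UMI, against 0.248% and 0.551% of cells with a Cd3e UMI. Near the limits of the rule, 19 sensitive and 33 resistant members held exactly 3 of the 6 genes, and 14 and 12 barcodes failed with 2 of them. A further 7 and 13 barcodes failed only by a Cd3e UMI.

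A gene was tested for size if it had at least 50 UMIs over the neutrophils of both libraries, and it was counted as past 2-fold at a ratio of at least 2 or at most 0.5. Of 1878 such genes, 72 (3.83%) were at least 2-fold higher and 345 (18.4%) at least 2-fold lower in sensitive neutrophils. Without the 7 fibroblast-profile barcodes, 1517 genes remained, of which 32 (2.11%) were higher and 66 (4.35%) lower. Of the 345 lower genes, 55 were past 2-fold in both counts and 197 no longer reached 50 UMIs. The median ratio over all genes was 1.04 in both, over different sets of genes. Leaving out the 7 barcodes cut the resistant total from 556668 to 431355 UMIs. A gene with no UMIs in these barcodes therefore has a lower ratio without them.

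Genes of the cystatin A-like stefins, small inhibitors of cysteine proteases encoded in a cluster on chromosome 16, were below 1 in sensitive over resistant neutrophils. Stfa2 (ENSMUSG00000022902, chromosome 16, 36403992 to 36408457, minus strand) had 174 UMIs in 113 sensitive and 1011 UMIs in 149 resistant neutrophils, or 595 and 1816 CPM. Its ratio was 0.328 (0.277 to 0.385), and 0.261 without the 7 barcodes. Cstdc5 stood at 890 and 2351 CPM, a ratio of 0.378 (0.298), and Stfa3 at 103 and 399 CPM, a ratio of 0.257 (0.203). These 3 genes were among the 12 lowest ratios by the naming rule. The 4 other stefins of the cluster with at least 50 UMIs, listed after their values were seen, were all below 1: Csta3 0.397 (0.317), Cstdc6 0.395 (0.312), Stfa2l1 0.658 (0.526) and Cstdc4 0.807 (0.648). Without both sets the ratios were 0.316 for Stfa2, 0.355 for Stfa3, 0.400 for Cstdc5, 0.293 for Csta3, 0.494 for Cstdc6, 0.534 for Stfa2l1 and 0.702 for Cstdc4, so the order of the libraries held for these 7 genes. In barcodes with at most 5% mitochondrial UMIs and no fibroblast profile, the Ngp barcodes among them, the ratios were 0.183 for Stfa2 and 0.189 for Cstdc5. After thinning to 1000 UMIs, Stfa2 was found in 18.6% of sensitive neutrophils (11.9 to 27.0) and in 41.6% of resistant ones (33.6 to 49.96), and Cstdc5 in 30.1% and 49.7%, while Cd3e cells gave 0.0991% and 0.301% for Stfa2. Unthinned, the Stfa2 shares were 26.5% and 54.4%. Since the stefins are close copies, a read may have been counted for the wrong one, and the values of single stefins are uncertain.

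The sequence before the starts of these genes is shown because these neighbouring genes share it and all 7 had ratios below 1, 5 of them under 0.5. Of all genes, 18.4% were at most 0.5 (4.35% without the 7 fibroblast-profile barcodes). RefSeq (GRCm38.p6) gave an upstream window for 6 of the 7 genes. In the 250 bases before each start, the longest run that all 6 hold is ACCTTTAAAACC, an AT-rich box, written in capitals below. On either strand, 11 of the 32851 RefSeq windows of 250 bases (0.0335%) hold this run. The 100 bases that end with the run are given 5′ to 3′ on each gene's strand, in order of the ratio without the 7 barcodes.
Stfa3, chr16:36455415-36455514, minus strand: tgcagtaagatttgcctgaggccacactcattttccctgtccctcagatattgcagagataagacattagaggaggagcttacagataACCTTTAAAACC
Stfa2, chr16:36408384-36408483, minus strand: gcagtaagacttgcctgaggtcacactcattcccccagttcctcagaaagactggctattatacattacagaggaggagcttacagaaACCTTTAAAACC
Cstdc5, chr16:36367571-36367670, minus strand: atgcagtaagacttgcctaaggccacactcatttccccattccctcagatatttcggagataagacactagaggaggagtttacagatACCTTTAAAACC
Csta3, chr16:36210235-36210334, plus strand: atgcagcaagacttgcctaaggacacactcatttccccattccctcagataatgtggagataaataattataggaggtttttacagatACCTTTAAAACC
Stfa2l1, chr16:36156687-36156786, plus strand: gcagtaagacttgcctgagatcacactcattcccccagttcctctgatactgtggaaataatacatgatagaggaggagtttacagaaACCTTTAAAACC
Cstdc4, chr16:36184092-36184191, plus strand: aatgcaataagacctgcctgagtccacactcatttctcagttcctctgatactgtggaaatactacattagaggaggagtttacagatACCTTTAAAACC
Over the 15 pairs of these stretches, 75.5% to 89.1% of aligned positions were identical.

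Saa3, Lcn2 and Wfdc21 were also among the 12 lowest ratios by the naming rule. Saa3, an acute-phase serum amyloid, had the lowest of them, at 171 CPM (50 UMIs in 13 cells) in the sensitive and 1859 CPM (1035 UMIs in 28 cells) in the resistant library, or 0.0920 (0.0678 to 0.122). The ratio was 0.0913 without the 7 barcodes and 0.0955 without the top barcode of each library, which held 353 UMIs in the resistant one. Lcn2, which binds bacterial siderophores, stood at 773 and 2493 CPM, a ratio of 0.310 (0.243), and the 3 Ngp barcodes held 63, 189 and 522 of its 1388 resistant UMIs. Without both sets the Lcn2 ratio was 0.508. Wfdc21, a whey acidic protein-type protease inhibitor, stood at 606 and 1642 CPM, a ratio of 0.369 (0.291), and 0.371 without both sets. Wfdc17 (chromosome 11, 83703991 to 83706268), of the same family and the most abundant gene of the tumor neutrophil list, stood at 5576 and 7755 CPM, a ratio of 0.719 (0.566). Other secreted proteins of neutrophils lay above 1, such as the protease inhibitor Slpi at 1.54 (1.24) and the haptoglobin gene Hp at 1.33 (1.05), both named after their values were seen.

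Granule genes were lower in the sensitive library mainly through the 3 Ngp barcodes. Of 16 genes of secondary and tertiary granules with at least 50 UMIs, 1 was at least 2-fold higher and 6 at least 2-fold lower (0 and 6 without the 7 barcodes, beside 3.83% of all genes higher and 18.4% lower, or 2.11% and 4.35% without the 7), with a median ratio of 0.782 (0.617). The list holds Mmp9 and Retnlg of the rule, and without these the median was 0.641 (0.550). Without both sets, 1 of 13 was higher and none was 2-fold lower, and the median was 0.978 beside 1.01 for all genes. Ngp itself had 3 sensitive and 1386 resistant UMIs, a ratio of 0.00412 (0.00319), and 1385 of the resistant UMIs were in the 3 Ngp barcodes. Camp, the cathelicidin gene, had 0 and 527 UMIs and was at least 92.2-fold lower against a floor of 3 UMIs per library, but 526 of the UMIs were in the Ngp barcodes. Outside them Ngp had 3 and 1 UMIs and Camp 0 and 1, which allow no ratio. Ltf, the lactoferrin gene, had 12 and 512 UMIs, a ratio of 0.0446 (0.0346), but the 3 Ngp barcodes held 1, 208 and 299 of the resistant UMIs. It was found in 9 sensitive and 7 resistant cells, and too few UMIs were left without both sets for a ratio. Lyz2, the lysozyme gene, went from 0.387 (0.300) to 0.957 without both sets. Adam8, a membrane protease, had the highest ratio of the list at 2.18 (1.73). Genes of primary granules, which are made in promyelocytes, had 1 and 4 UMIs in all.

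Of the other lowest ratios, those of Ly6g, Ifitm6 and Aldh2 were above 0.5 without both sets, and those of Cybb, Fosb and Znhit1 were not. Ly6g, the surface antigen used to mark mouse neutrophils, had 12 UMIs in 9 sensitive and 125 UMIs in 18 resistant cells, a ratio of 0.183 (0.142), and 0.558 without both sets. Ifitm6, an interferon-induced transmembrane gene, went from 0.261 (0.203) to 0.879, and Aldh2, an aldehyde dehydrogenase, from 0.117 (0.123) to 0.674. Cybb, the catalytic subunit of the NADPH oxidase, had 5 and 87 UMIs, a ratio of 0.110 (0.0848), and 0.182 without both sets. Fosb, an immediate early gene, had 0.178 (0.338, and 0.309 without both sets), and Znhit1, a chromatin-remodelling subunit, 0.311 (0.262, and 0.269) from 8 and 49 UMIs.

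Il1b was at least 2-fold higher in sensitive neutrophils over all barcodes. The gene (ENSMUSG00000027398, chromosome 2, 129364570 to 129371139, minus strand), which encodes interleukin-1β and is named after its values were seen, had 5838 UMIs in sensitive and 5050 UMIs in resistant neutrophils, or 19973 and 9072 CPM. Its ratio was 2.20 (2.12 to 2.29), 1.76 without the 7 barcodes, 1.63 without both sets and 1.97 in barcodes with at most 5% mitochondrial UMIs and no fibroblast profile. At 1000 UMIs per cell the sensitive neutrophils held 20.6 ± 12.7 (SD over 113 cells) and the resistant ones 12.2 ± 8.93 (142 cells) Il1b UMIs, with medians of 19 and 11. The cells of the 2 libraries overlapped, from 0 to 52 and from 0 to 38 UMIs. Cxcl2, a CXCR2 ligand and the most abundant gene of the cytokine list, stood at 40103 and 26263 CPM, a ratio of 1.53 (1.22), with thinned medians of 35 and 28.5 UMIs per cell.

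Of 18 chemokine and cytokine genes with at least 50 UMIs, 3 were at least 2-fold higher and 1 lower (2 and none of 17 without the 7 barcodes), and the shares of all genes were 3.83% and 18.4% (2.11% and 4.35%). Their median ratio was 1.36 (1.22). The 3 higher genes were Cxcl10, Il1b and Osm. Osm, the oncostatin M gene, had 2.16 (1.70), Tnf 1.95 (1.53), the CXCR2 ligands Cxcl3 and Cxcl1 1.63 (1.28) and 1.60 (2.20), and Il1rn, which encodes the interleukin-1 receptor antagonist, 1.68 (1.34). Il1a, the gene of interleukin-1α, was below 1, at 0.949 from 145 and 291 UMIs and 0.743 (0.604 to 0.910) without the 7 barcodes. Over all barcodes but the top one of each library, which held 68 Il1a UMIs in the resistant library, its ratio was 1.09. The chemokine genes Ccl3 and Ccl4 had 1.30 and 1.34 (1.02 and 1.05). Ccl2, a monocyte attractant, had the lowest ratio at 0.0879 from 6 and 130 UMIs, and 0.466 (0.152 to 1.21) without the 7 barcodes. Cxcl10, a ligand of the T cell receptor CXCR3, had 273 and 135 UMIs, a ratio of 3.85 (3.01), but 1 sensitive barcode held 140 of its UMIs. Its ratio was 1.99 as a mean over cells and turned to 0.749 among barcodes with no T cell, fibroblast, epithelial or B cell marker UMI, and 15.0% of sensitive and 9.40% of resistant neutrophils held a UMI after thinning, against 1.64% and 1.45% of Cd3e cells.

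Hdc and Ptgs2 encode enzymes that make an amine and a lipid mediator, and both were at least 2-fold higher over all barcodes. Hdc, which makes histamine and is named after its values were seen, stood at 2080 and 826 CPM, a ratio of 2.52 (2.03), and 1.98 without both sets. At 1000 UMIs per cell, 79.6% of sensitive neutrophils (71.0 to 86.6) and 57.7% of resistant ones (49.4 to 65.8) held an Hdc UMI, against 1.44% and 0.350% of Cd3e cells. The sensitive cells held 2.24 ± 2.22 and the resistant ones, without the 7 barcodes, 1.04 ± 1.17 Hdc UMIs (SD over 113 and 142 cells). Ptgs2, the inducible prostaglandin synthase COX-2 (chromosome 1, 150100031 to 150108227, plus strand), stood at 1543 and 742 CPM, a ratio of 2.08 (1.62). It had the highest ratio of the 12 suppressive and tumor neutrophil genes with at least 50 UMIs. Of these, 1 was 2-fold higher and 1 lower (none of 11 either way without the 7 barcodes). Of all genes, 3.83% were higher and 18.4% lower (2.11% and 4.35%). The median of the list was 0.952 (0.782), beside 1.04 for all genes in both. The lower gene of the list, the fibronectin gene Fn1, had 6 and 463 UMIs, and its ratio turned from 0.0247 to 2.21 (0.525 to 10.7) without the 7 barcodes. Cd274, which encodes the checkpoint ligand PD-L1, had 1.29 (1.03).

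**Figure D2:**
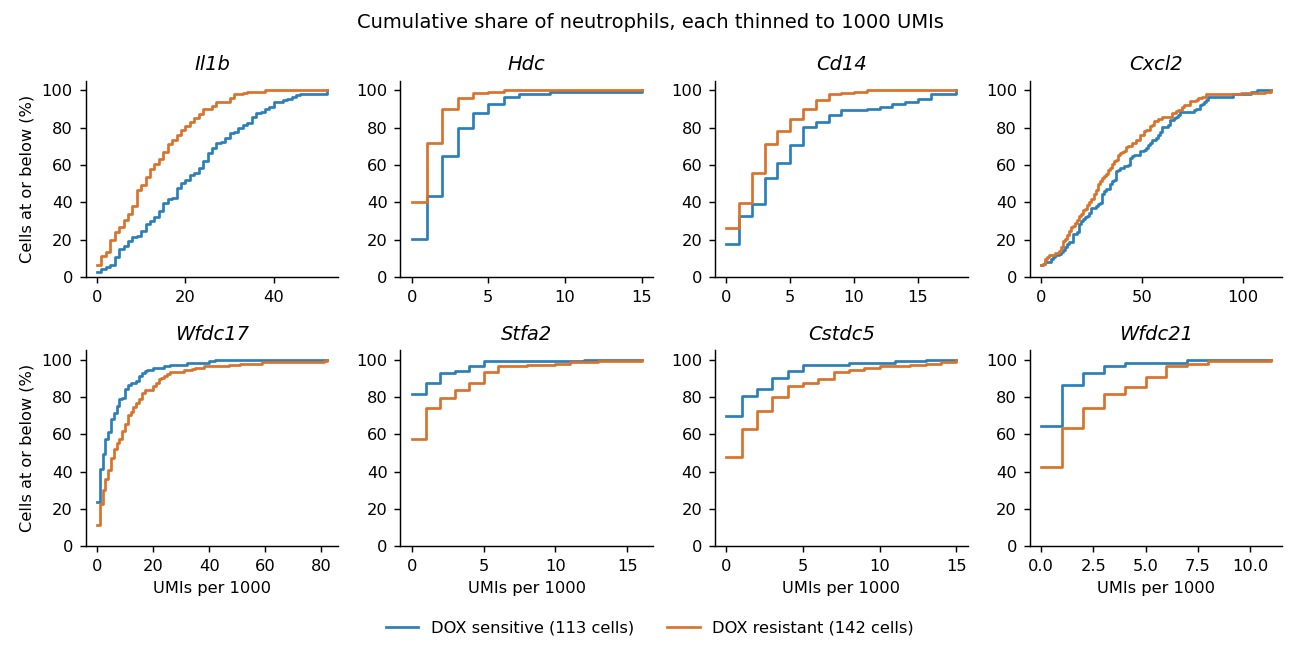
Cumulative percent of neutrophils at or below a number of UMIs of each gene, after each cell was thinned to 1000 UMIs, for 113 sensitive and 142 resistant cells (the 7 fibroblast-profile barcodes left out). The sensitive curve lies to the right for Il1b (medians of 19 and 11), Hdc and Cd14 and to the left for Wfdc17 (medians of 3 and 6), Stfa2, Cstdc5 and Wfdc21, and the curves overlap most for Cxcl2.

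The 100 bases before the starts of Il1b and Ptgs2 are shown since both hold a match to the letters TTNNGNAA, a simple form of the C/EBP site, named for a family of factors active in myeloid cells. Matches are in capitals, either strand was searched, and 12104 of 32851 RefSeq windows of 250 bases (36.8%) hold at least 1, so a match is common and is given as a description only.
Il1b, chr2:129371140-129371239, minus strand: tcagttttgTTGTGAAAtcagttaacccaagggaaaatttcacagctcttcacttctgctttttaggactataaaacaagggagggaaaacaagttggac
Ptgs2, chr1:150099931-150100030, plus strand: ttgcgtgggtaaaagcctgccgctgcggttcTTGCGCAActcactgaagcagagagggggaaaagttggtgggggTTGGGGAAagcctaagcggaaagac
The ratios of these genes without the 7 barcodes were 1.76 and 1.62.

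Receptor genes were mostly above 1. None of the 18 genes of chemotactic and growth factor receptors was past 2-fold in either direction, and their median ratio was 1.53 (1.22, and 1.17 without both sets). This list holds Csf3r and Cxcr2 of the rule, and the 16 other genes had a median of 1.53 (1.22). Ccr1, a receptor for CCL3 and other chemokines, was highest at 1.97 (1.55), and the atypical receptor gene Ccrl2, the most abundant, stood at 8673 and 5479 CPM, a ratio of 1.58 (1.26). Ifngr1, an interferon-γ receptor chain, was lowest at 0.965 (0.928). Among 18 innate receptor genes, 3 were at least 2-fold higher and none lower (1 and none without the 7 barcodes, where 2.11% of all genes were higher and 4.35% lower), with a median of 1.60 (1.27, and 1.21), or 1.59 (1.26) without Clec4d of the rule. These 3 were Clec4n, the fungal receptor dectin-2, at 3.15 (2.50), Cd14, a co-receptor for bacterial lipopolysaccharide, at 2.07 (1.63), and the leukocyte immunoglobulin-like receptor gene Lilr4b at 2.05 (1.64). Fcer1g, the common chain of Fc receptors, had 1.36 (1.08) and Fcgr3 1.15 (0.906), the lowest of that list.

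The 12 highest ratios by the naming rule belonged to genes of different functions. Nr4a3 (ENSMUSG00000028341), an orphan nuclear receptor gene induced by acute stimuli, had 40 UMIs in 22 sensitive and 15 UMIs in 11 resistant cells, a ratio of 5.08 (4.22, 2.25 to 8.39). Dennd4a, an exchange factor for Rab GTPases, had 83 and 42 UMIs and 3.76 (3.22). The proton pump subunit Atp6v0a1 and the lipid flippase Atp11a each had 3.27 (2.62 and 2.80), the adaptor Cass4 3.16 (2.57), and Coq10b, of coenzyme Q metabolism, 2.98 (3.02). Socs1, a feedback inhibitor of cytokine receptors, had 2.90 (2.46), Phlda1 2.86 (2.90), Arid5a, which stabilizes cytokine transcripts, 2.84 (2.20) and AW011738 2.78 (2.35). All 12, Clec4n and Cxcl10 included, were above 2 without the 7 barcodes and without their top barcodes, and 11 of 12 as a mean over cells. Phlda1 was found in 5.31% of sensitive and 5.37% of resistant cells after thinning. Many of these values rest on fewer than 100 UMIs.

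**Figure D3:**
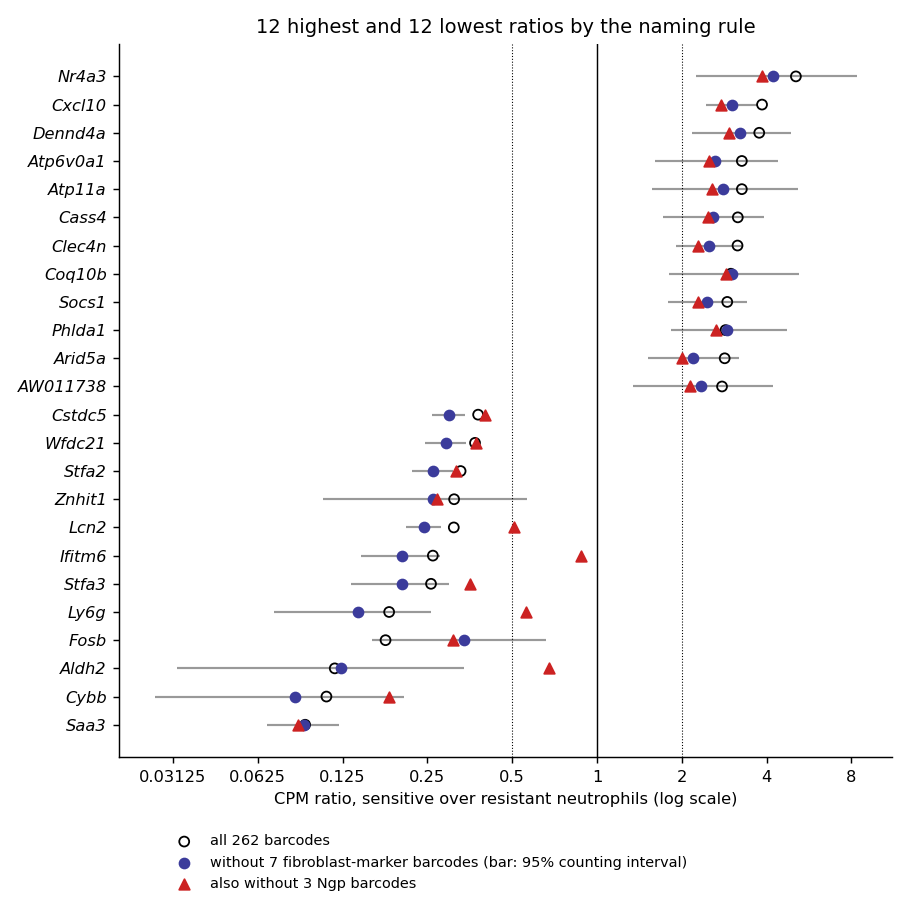
CPM ratio of sensitive over resistant neutrophils on a log axis for the 12 highest and 12 lowest genes by the naming rule, over all 262 barcodes (open circles), without the 7 fibroblast-profile barcodes (filled, with 95% counting intervals) and without the 3 Ngp barcodes as well (triangles). Ratios such as those of Ifitm6 (0.203 and 0.879), Aldh2 and Ly6g move toward 1 in the last setting, whereas those of Stfa2 (0.261 and 0.316), Wfdc21 and Saa3 stay below 0.5.

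Interferon-stimulated genes, which the sensing of nucleic acids or interferons induces, had a median above that of all genes. Of 30 such genes, 3 were at least 2-fold higher and 1 lower (1 and none without the 7 barcodes, beside shares of all genes of 3.83% and 18.4%, or 2.11% and 4.35%), with a median ratio of 1.33 (1.19, and 1.12 without both sets). Ifitm1, the most abundant, stood at 5775 and 5109 CPM, a ratio of 1.13 (0.901). The antiviral gene Rsad2 had 1.80 (1.57) and the ubiquitin-like Isg15 1.33 (1.14), and Isg15 was found in 77.0% and 81.2% of cells after thinning. Bst2 had the lowest ratio at 0.391, and 0.748 (0.492 to 1.12) without the 7 barcodes.

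In the other gene groups the counts past 2-fold stand beside 3.83% of all genes higher and 18.4% lower, or 2.11% and 4.35% without the 7 barcodes. Of 10 genes of the NADPH oxidase and antioxidant enzymes, only Cybb (above) was past 2-fold, and the peroxiredoxin gene Prdx5, the most abundant, had 0.817 (0.683). Among 11 adhesion genes only Ly6g was past 2-fold, and Cd44, a hyaluronan receptor, had 1.75 (1.46) and the tetraspanin Cd9 1.49 (1.28). None of 14 survival and death genes was past 2-fold: Mcl1, the main survival factor of neutrophils, had 1.18 (0.974), the death receptor Fas 1.90 (1.67) and the pro-apoptotic Bax 0.568 (0.726). Among 8 targets of p53, the factor that DNA damage activates, none was past 2-fold, 4 were above 1 and the median was 1.12 (0.988). Cdkn1a, the cell-cycle inhibitor p21, stood at 2621 and 1904 CPM, a ratio of 1.38 (1.22), and Mdm2 had 0.635 (0.545). Of 24 transcription factor genes none was past 2-fold, the median was 1.30 (1.16), and values ran from Jun at 0.623 (0.680) to Fosl2 at 1.99 (1.64). Nfkbia, an inhibitor and target of NF-κB, had 1.73 (1.40), and the cytokine feedback gene Socs3 2.29 (1.91). The single cell-cycle gene with at least 50 UMIs, Hmgb2, had 1.16 (0.927).

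Genes of glycolysis and hypoxia had a median below that of all genes. Of 25, none was past 2-fold (2 lower without the 7 barcodes). Of all genes, 3.83% were higher and 18.4% lower (2.11% and 4.35% without the 7). The median of the list was 0.914 (0.765, and 0.744 without both sets, beside 1.01 for all genes). The glucose transporter Slc2a3 had 0.591 (0.458), the pyruvate kinase Pkm, the most abundant, 1.04 (0.880) and the lactate exporter Slc16a3 1.72 (1.40). Among barcodes with at most 5% mitochondrial UMIs and no fibroblast profile (101 sensitive and 66 resistant), the list medians were 0.740 for glycolysis and hypoxia, 0.383 for the granule genes, 1.26 and 1.36 for the 2 receptor lists, 1.41 for chemokines and cytokines and 1.30 for interferon-stimulated genes, beside 1.08 for all genes. This setting keeps the 3 Ngp barcodes, and without both sets the granule median was 0.978 at up to 10% mitochondrial UMIs. Vegfa, an angiogenic factor induced by hypoxia, had 23 and 60 UMIs and 0.730 (0.617).

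**Figure D4:**
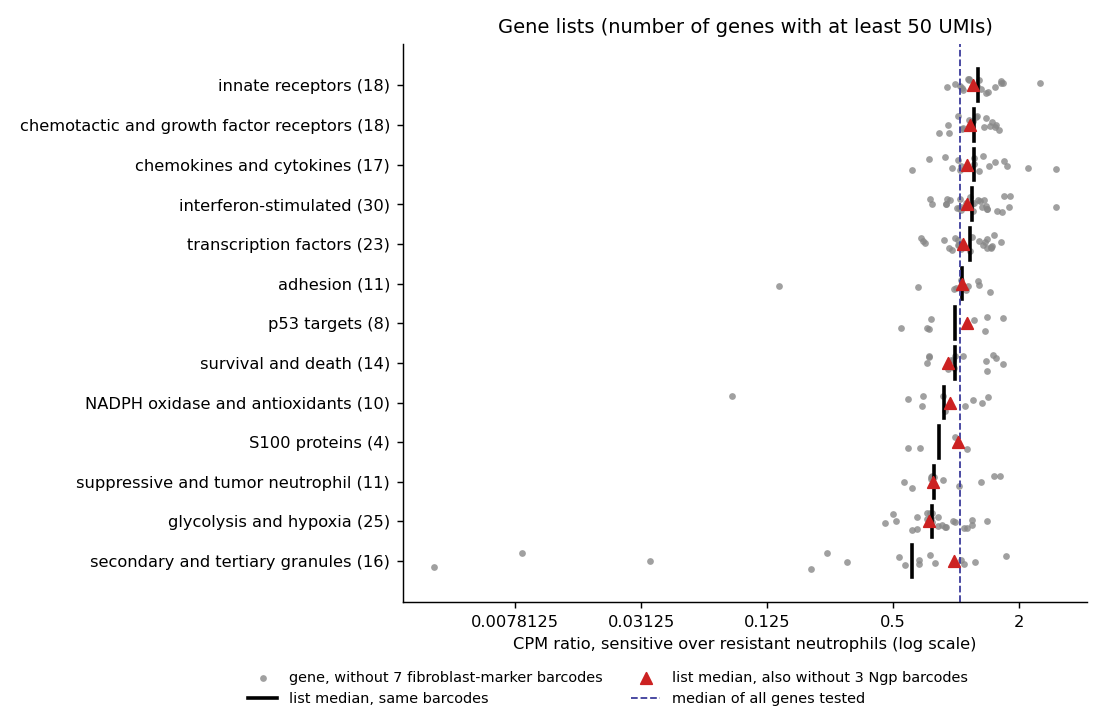
CPM ratio on a log axis for each gene of 13 lists without the 7 fibroblast-profile barcodes (points), with the list median (black line) and the median without the 3 Ngp barcodes as well (triangle), and the median of all genes as a dashed line at 1.04. The median of the granule list moves from 0.617 to 0.978 and that of glycolysis and hypoxia from 0.765 to 0.744, while receptor, cytokine and interferon-stimulated lists stay a little above the dashed line.

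Neutrophils also differed among themselves. After thinning, 40 of 113 sensitive neutrophils (35.4%, 26.6 to 44.95) and 63 of 142 resistant ones (44.4%, 36.04 to 52.9) held a UMI of Retnlg, 1 of the 6 genes of the rule. Within each library, cells with Retnlg held more Stfa2 than cells without it (4.03-fold in the sensitive, 1.76-fold in the resistant library), more Cstdc5 (2.80 and 1.82), Wfdc21 (2.62 and 1.61) and Wfdc17 (1.87 in both), and less Tnf (0.281 and 0.266) and Ccl3 (0.388 and 0.647). Il1b was nearly even between them, at 0.864 and 0.901. Since Retnlg is a gene of the rule, values within these classes are a description and add no support. Per cell, Il1b was 1.63-fold higher in sensitive cells with Retnlg and 1.70-fold in those without, Hdc 1.79- and 2.49-fold, Stfa2 had ratios of 0.556 and 0.242, Cstdc5 0.608 and 0.394 and Wfdc17 0.562 and 0.561. Several genes had ratios on both sides of 1 in cells with and without Retnlg: Cxcl2 0.816 and 1.33, Ccl3 0.632 and 1.06, Ccl4 0.595 and 1.17, Ccrl2 0.737 and 1.29 and Cxcl10 7.04 and 0.656. In cells without Retnlg the intervals held 1 for Ccl3 (0.898 to 1.24), Ccl4 (0.992 to 1.37) and Cxcl10 (0.357 to 1.18). A single sensitive cell held 31 of the 67 thinned Cxcl10 UMIs of sensitive cells with Retnlg.

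The same ratios in the 2 most similar cell types of these libraries were given for comparison of values. Macrophages (C1q genes of at least 3 UMIs, 176 sensitive and 139 resistant barcodes) had an Il1b ratio of 0.955, a Cd14 ratio of 0.976, a Cxcl2 ratio of 0.663 and an Hdc ratio of 1.29. Their Saa3 stood at 3924 and 389 CPM, a ratio of 10.1 (9.33 to 10.9), on the other side of 1 from neutrophils, and Wfdc17 at 1.97. All other kept barcodes together had 2402 and 1112 CPM of Saa3. Monocytes, with 21 and 35 barcodes, had ratios of 0.946 for Il1b and 1.54 for Cd14. The resistant monocytes also carried far more fibroblast and neutrophil RNA than the sensitive ones. Their Col1a1 level was 2327 CPM, against 5.31 CPM for sensitive monocytes, and their S100a8 level was 1447 CPM, against 101 CPM. Barcodes with such UMIs remained among the monocytes, and their effect on the monocyte ratios was not tested. None of these differences between cell types was tested.

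Whole-tumor libraries, which had no depletion and were not used by the rule, were examined by the same neutrophil genes in barcodes with at least 200 genes. They gave 164 of 269 barcodes (61.0%) in the sensitive library, 117 of 263 (44.5%) in the library titled resistant, whose source label says sensitive, and 258 of 488 (52.9%) in the saline control, whose source label says sensitive as well. They were made with another software version and feature list and held no mitochondrial UMIs, so levels were not compared across the 2 kinds of library. Stfa2 stood at 1269, 2059 and 1408 CPM in the sensitive, resistant-labelled and control neutrophils, a sensitive over resistant-labelled ratio of 0.616, and Cstdc5 had 0.710, Wfdc17 0.762 and Saa3 0.461, below 1 as in the T cell libraries, whereas Cstdc4 had 1.03. Il1b stood at 6305, 8905 and 4551 CPM, a ratio of 0.708, and Hdc had 0.770 and Cd14 0.866, on the other side of 1. Lcn2 was even at 1.01, and 12 of 164, 4 of 117 and 52 of 258 neutrophils held an Ngp UMI. Of the 12 highest genes 8 had a whole-tumor ratio above 1, and of the 12 lowest 7 had one below 1. The median whole-tumor ratio of all 1110 genes with enough UMIs in both kinds of library was 0.983. Over 167 listed genes with at least 50 UMIs in both kinds of library, 47 were above 1 and 37 below 1 in both, and 83 lay on opposite sides. Over all 1110 genes with enough UMIs in both, 285 were above and 253 below 1 in both and 572 on opposite sides, shares close to those of the listed genes. Of these 572, 327 were below 1 and 245 above 1 in the whole tumor.

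**Figure D5:**
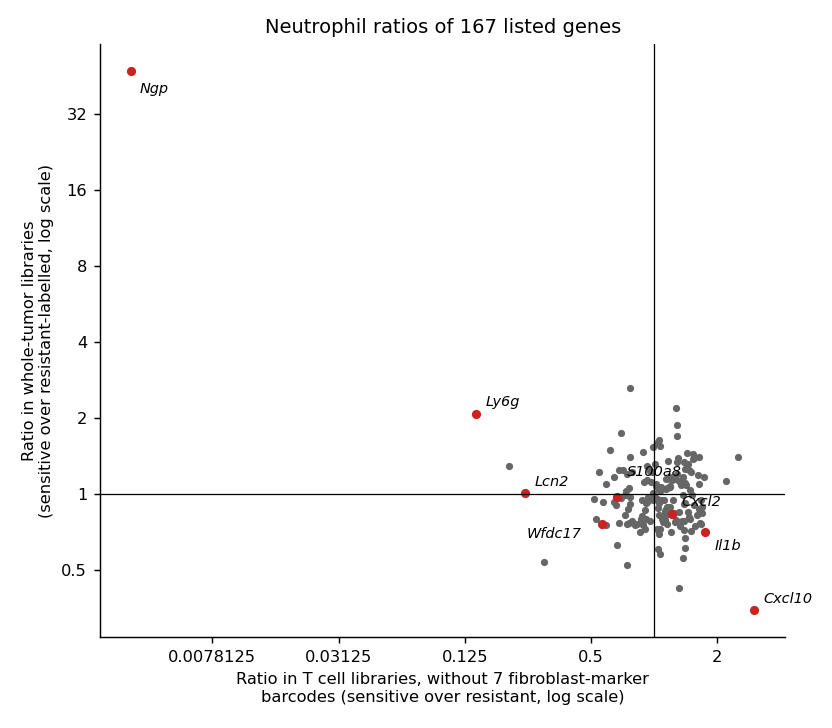
Ratio of sensitive over resistant neutrophils in the T cell libraries (without the 7 fibroblast-profile barcodes) against that of sensitive over resistant-labelled neutrophils in the whole-tumor libraries, on log axes, for 167 genes of the lists. Ngp (0.00319 and 47.6), Ly6g (0.142 and 2.08) and Cxcl10 (3.01 and 0.345) lie far from the others in opposite corners, and Il1b (1.76 and 0.708) lies to the right of and below 1.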

How the data were processed

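The deposited values are UMI counts per gene and barcode, which the authors made with Cell Ranger (6.0.0 for the T cell and 3.0.1 for the whole-tumor libraries, per the file headers) on mm10. They were not normalized. The T cell libraries held 3949 (sensitive) and 6116 (resistant) barcodes with 31690845 and 35908799 UMIs. Coordinates are from GENCODE M21 (GRCm38), upstream sequences from RefSeq (GRCm38.p6).

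UMIs of the neutrophils of a library were summed and scaled to CPM, and ratios carry exact conditional binomial 95% intervals. No test between groups was made, since each group is 1 library. Doublets were not removed. Leaving out the highest Scrublet scores (Scanpy 1.11.5) was an alternative. Cells were thinned to 1000 UMIs for shares. Ratio intervals were tested on simulated counts drawn independently for each gene. This checks the calculation only and does not cover UMIs that gather in a few barcodes. A library at 0 takes a floor of 3 counts. NumPy 2.4.6, SciPy 1.17.1 and pandas 2.3.3 were used with Python 3.11.15.

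The members, marker genes and gene lists were chosen with earlier results of these data known. The naming rule took the genes of the gate, the 12 highest and 12 lowest ratios among genes with at least 50 UMIs, found in at least 10% of the neutrophils of the library where they were higher and at a higher level there than in its other kept barcodes (no mitochondrial, ribosomal or predicted genes), and in each list the highest and lowest ratio and the most abundant gene. Genes named beyond it were chosen after their values were seen. Some genes that the rule names are not reported here.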

Additional observations from a re-analysis of the deposited data

Results flagged for a closer look

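4 flagged genes with UMIs in both whole-tumor libraries compared had ratios on opposite sides of 1 in the neutrophils of the T cell libraries (without the 7 fibroblast-profile barcodes) and of the whole-tumor libraries, each past 2-fold. Cxcl10 had 3.01 and 0.345, Fosb 0.338 and 3.78, Ly6g 0.142 and 2.08 and Ngp 0.00319 and 47.6. The difference between the 2 kinds of library was not tested, since each group is 1 library, and the library titled resistant among the whole tumors carries conflicting labels. For 3 of these genes a few barcodes held much of the signal: 1 sensitive barcode held 140 of the 273 Cxcl10 UMIs, and 3 resistant barcodes held 1385 of the 1386 Ngp UMIs and 96 of the 125 Ly6g UMIs. Without these 3 and the 7 fibroblast-profile barcodes the Ly6g ratio in the T cell libraries was 0.558, not past 2-fold. Camp and Ltf, also lower in the sensitive T cell library, had no whole-tumor ratio. They had 120 and 81 UMIs in the sensitive whole-tumor neutrophils and 0 in those of the library titled resistant.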

How the results depend on the processing

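No paired analysis was possible because each group has 1 library. The ratio of neutrophil shares was between 0.585 and 0.740 in all 10 alternatives. The count of genes at least 2-fold higher, 72, was 31 as a mean over cells, 21 without barcodes holding a T cell, fibroblast, epithelial or B cell marker UMI, 32 without the fibroblast-profile barcodes, 25 without the Ngp barcodes as well, 140 at most 5% mitochondrial UMIs (50 without the fibroblast-profile barcodes too), and 167 and 38 with a minimum of 20 and 100 UMIs. The count of lower genes, 345, was 218, 50, 66 and 52 in the first 4 of these settings, 287 at most 5% mitochondrial UMIs (60 without the fibroblast-profile barcodes too), and 790 and 206 with a minimum of 20 and 100 UMIs. Without any marker UMI, Bst2 (1.21), Cxcl10 (0.749) and S100a10 (1.35) turned to the other side of 1. Fn1 turned to 2.21 without the fibroblast-profile barcodes, 2.02 without the Ngp barcodes as well, and 4.13 without the fibroblast-profile barcodes at most 5% mitochondrial UMIs, where Bst2 was 1.13. The cause was not tested, apart from the 459 of 463 resistant Fn1 UMIs in those barcodes. The settings on fibroblast-profile barcodes, Ngp barcodes and 5% mitochondrial UMIs were added after seeing the data. Median depths of 2298 and 2631 UMIs per neutrophil limit genes of few UMIs, and 3 pooled tumors per library give no spread between animals.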
